A study of Homo sapiens with 6 samples.

Results

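The aminoacyl-tRNA synthetase genes were examined in 6 RNA-seq libraries of U87-MG, an established human glioblastoma cell line. Members were the rows of the table whose gene symbol is built like those of the synthetases, a 1-letter amino acid code followed by ARS and at most 1 of the digits 1, 2 or 3, together with EPRS1 and the phenylalanyl subunits FARSA and FARSB. This rule found 38 of 61806 genes, of which 19 encode cytosolic enzymes, 17 mitochondrial enzymes and 2, GARS1 and KARS1, an enzyme for both compartments. The compartments were assigned from general knowledge, and no measured value entered the choice. A total of 37 members passed the filter on low values, a mean of at least 0.5 FPKM (counts per kilobase of exon, scaled to the reads counted in the library) over the 6 libraries. VARS2, at a mean of 0.418 FPKM, did not.

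The study examined what follows the loss of GRIK1, which encodes a kainate-type glutamate receptor subunit, in glioblastoma cells. There were 3 libraries labelled NC, whose genotype is given as wildtype, and 3 labelled GRIK1 siRNA, whose genotype is given as GRIK1 knockdown; no drug, time or other allele is given for either group. The design text of the series names shRNA and the sample titles siRNA. The titles number the knockdown libraries 1 to 3, and the study's methods number 3 siRNA sequences the same way, and the study went on with siRNA1 after comparing them. This points to 1 sequence for all 3 libraries, but no label ties a library to a sequence, and nothing says that the libraries of a group came from separate cultures. Tests here therefore measure the spread between these libraries, which may be technical. GRIK1 itself had 18, 9 and 8 reads in NC libraries 1 to 3 and 15, 20 and 20 reads in siRNA libraries 1 to 3, so its counts were not lower in the libraries labelled as its knockdown. Those libraries are called by their label throughout.

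Depth ran from 11099909 to 14006968 counted reads per library. NC library 3 stood apart from the other 5. Its correlation with them over log2 normalised counts was between 0.952 and 0.968, against 0.980 to 0.992 among the others, and the comparisons are given with and without it. TNC and FN1, of the cell line's markers, stood at 24.8 and 11.6 FPKM in it and at 144 and 62.9 FPKM or more in the other libraries, and what sets this library apart was not tested. Of the markers of a mesenchymal glioma line, VIM, CD44, TNC and FN1 were abundant (VIM at 981 FPKM in the NC libraries), CHI3L1 was low and NES stood at 0.467 FPKM in the NC libraries. Among 13 markers of other cell types CD3E and MOG were at 0 in every library, and PTPRC, PECAM1, CDH5 and MBP were near 0. GFAP and RBFOX3 were below the filter and not tested. Their means in the NC and siRNA libraries were 0.08 and 0.263 FPKM for GFAP and 0.127 and 0.25 FPKM for RBFOX3. For both, all siRNA libraries lay above all NC libraries in FPKM. The filter was passed by 5 of 13, and none of these was called between the groups. The means of these 5 in the NC and siRNA libraries were 2.80 and 3.74 FPKM for CD68, 1.20 and 1.85 for EPCAM, 0.79 and 0.683 for KRT18, 0.40 and 0.79 for SYT1, and 0.553 and 0.617 for OLIG2. For CD68 and SYT1 all siRNA libraries lay above all NC libraries, as for 19.4% of all tested genes.

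Aminoacyl-tRNA synthetases join each amino acid to its tRNA and so supply the ribosome with charged tRNA. They fall into 2 unrelated catalytic folds, class I and class II. The cytosol and the mitochondrial matrix mostly use enzymes from different nuclear genes, and the mitochondrial ones charge the tRNAs encoded in the mitochondrial genome. Several cytosolic enzymes are held in a multi-synthetase complex with the scaffold proteins AIMP1, AIMP2 and EEF1E1. Uncharged tRNA activates the kinase GCN2 (EIF2AK4), and the transcription factor ATF4, made when this pathway is on, binds a composite element with a C/EBP and an ATF part at genes of amino acid supply, among them synthetase genes.

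The promoters are shown because the members that hold an ATF4-type element are compared as a group below. RefSeq windows from 250 bases before to 50 bases after each annotated start (assembly GRCh38.p14) were matched for 30 of 38 members, and AARS2, LARS1, TARS3, VARS1, VARS2 and YARS1 were among those not matched. The letters TGATGNAA were searched on both strands. They stood in windows of 8 of 30 matched members (26.7%), against 3.62% of all 35116 windows and 4.46% of the 27305 symbols with a window. By compartment they stood in 6 of 14 cytosolic, 1 of 2 shared and 1 of 14 mitochondrial members. Each stretch below is 30 bases on the strand of its gene, 5′ to 3′, with the element in capitals, which read TTNCATCA where the match lies on the opposite strand.
AARS1, chr16:70289675-70289704, minus strand: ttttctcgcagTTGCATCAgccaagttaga
CARS1, chr11:3057407-3057436, minus strand: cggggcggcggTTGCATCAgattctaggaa
GARS1, chr7:30594834-30594863, plus strand: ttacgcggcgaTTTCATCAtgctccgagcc
IARS1, chr9:92293692-92293721, minus strand: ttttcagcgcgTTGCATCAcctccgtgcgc
MARS1, chr12:57488053-57488082, plus strand: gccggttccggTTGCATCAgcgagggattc
NARS1, chr18:57621804-57621833, minus strand: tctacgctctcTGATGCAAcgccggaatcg
TARS1, chr5:33440956-33440985, plus strand: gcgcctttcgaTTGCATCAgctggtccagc
YARS2, chr12:32756076-32756105, minus strand: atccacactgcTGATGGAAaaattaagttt
Of these, CARS1, IARS1, MARS1, NARS1 and TARS1 hold the element within 14 bases of a RefSeq start, GARS1 33 bases before its start, AARS1 187 bases before its start and YARS2 197 bases before its start. AARS1, CARS1, IARS1, MARS1 and TARS1 share the same 8 letters, TTGCATCA, NARS1 has them in the other orientation, and GARS1 and YARS2 differ at the free position of the element.

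HARS1 and HARS2, which encode the cytosolic and the mitochondrial histidyl-tRNA synthetase, lie head to head on chromosome 5, with RefSeq starts at 140691370 and 140691455, 85 bases apart. They are shown because the interval between both starts holds a pair of ETS-type sites (CCGGAAGT), so that each site lies in the window of both genes.
HARS1, chr5:140691361-140691390, minus strand: cgactcgatagCCGGAAGTcatccttgctg
HARS2, chr5:140691436-140691465, plus strand: tccggctcctcCCGGAAGTgccgaagctgg
CCGGAAGT was found in 8 of 30 members (5 of 14 cytosolic and 3 of 14 mitochondrial), against 4.14% of all windows and 4.95% of symbols with a window. An NRF1-type motif was found in 6 of 30 members, 3 of 14 in each compartment, against 5.78% of all windows and 6.98% of symbols with a window. No site of 1 of these motifs overlapped a site of another in the members' windows. A match is a description of the letters and not a site of binding.

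Every cytosolic and shared gene was detected at a mean of at least 4.95 FPKM, and the mitochondrial genes lay mostly below them. The median of the 19 cytosolic genes was between 26.5 and 29.5 FPKM in the 6 libraries and that of the 17 mitochondrial genes between 3.29 and 3.90 FPKM, so the cytosolic median was 6.97 to 8.68 times the mitochondrial one within a library. Mitochondrial genes gave 10.1 to 11.6% of the summed FPKM of all synthetases. These levels divide the counts by the exonic size in the table, the length of all annotated exons of a gene.

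**Figure D1:**
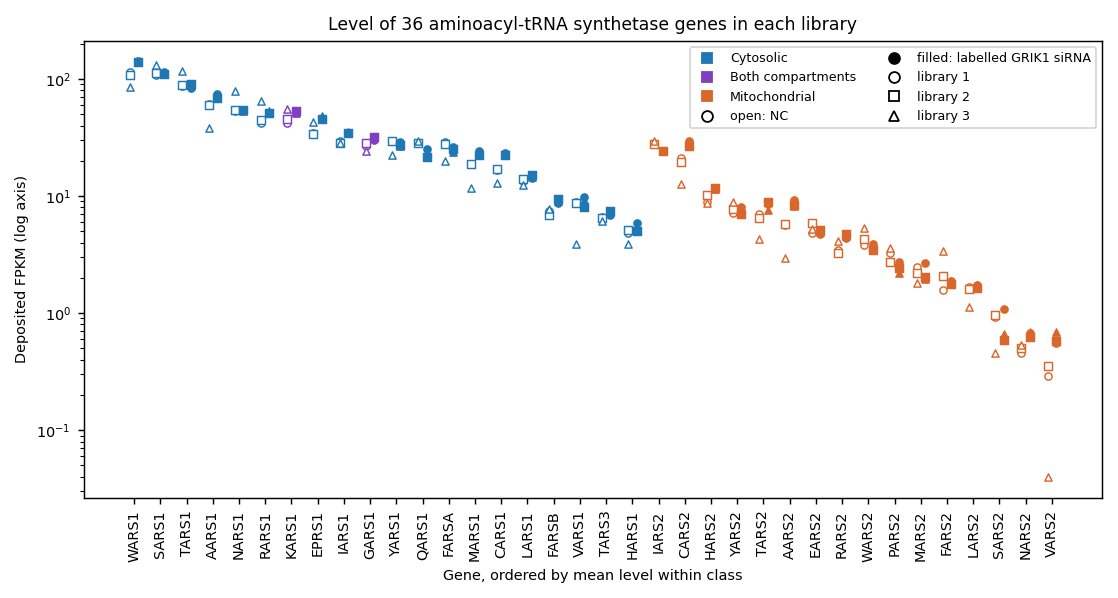
Deposited FPKM (log axis) of 36 synthetase genes in each of the 6 libraries, ordered by mean level within cytosolic, shared and mitochondrial genes. Open symbols are NC libraries, filled symbols those labelled GRIK1 siRNA, and shapes give the library number; VARS2 lies lowest, and the triangle of NC library 3 lies outside the other NC symbols for most genes.

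WARS1 was the most abundant member in FPKM. It encodes the cytosolic tryptophanyl-tRNA synthetase, a gene also known to be induced by interferon gamma, and stood at 115, 108 and 85.9 FPKM in NC libraries 1 to 3, against 141, 139 and 139 FPKM in siRNA libraries 1 to 3. SARS1, for serine, stood at 109, 112 and 132 FPKM in NC libraries 1 to 3, against 114, 109.5 and 112 FPKM in siRNA libraries 1 to 3. TARS1, for threonine, stood at 86.5, 89.6 and 116 FPKM in NC libraries 1 to 3, against 82.9, 91.0 and 88.8 FPKM in siRNA libraries 1 to 3. The means of WARS1 and SARS1 over 6 libraries, 121 and 115 FPKM, were closer than the range of either gene between libraries, and SARS1 was the higher in NC libraries 2 and 3. By deposited FPKM the lowest cytosolic member was HARS1. It stood at 4.82, 5.13 and 3.88 FPKM in NC libraries 1 to 3, against 5.84, 4.98 and 5.07 FPKM in siRNA libraries 1 to 3. TARS3, a second threonyl-tRNA synthetase gene, stood at 6.63, 6.50 and 6.07 FPKM in NC libraries 1 to 3, against 6.91, 7.42 and 7.37 FPKM in siRNA libraries 1 to 3. VARS1, for valine, stood at 8.90, 8.64 and 3.92 FPKM in NC libraries 1 to 3, against 9.79, 8.08 and 9.26 FPKM in siRNA libraries 1 to 3. In deposited FPKM HARS1 lay below TARS3 in every library, and VARS1 lay above both other than in NC library 3, where it was at the level of HARS1.

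Among mitochondrial genes, IARS2 and CARS2 reached the level of cytosolic members. IARS2, for isoleucine, stood at 27.6, 27.8 and 29.5 FPKM in NC libraries 1 to 3, against 24.0, 24.2 and 24.1 FPKM in siRNA libraries 1 to 3. CARS2, for cysteine, stood at 21.1, 19.5 and 12.8 FPKM in NC libraries 1 to 3, against 29.6, 26.9 and 28.2 FPKM in siRNA libraries 1 to 3. HARS2, for histidine, stood at 8.94, 10.2 and 8.75 FPKM in NC libraries 1 to 3, against 11.4, 11.6 and 11.4 FPKM in siRNA libraries 1 to 3. IARS2 was above CARS2 in the NC libraries and below it in the siRNA libraries. The lowest members were VARS2, for valine, at 0.29, 0.35 and 0.04 FPKM in NC libraries 1 to 3, against 0.56, 0.58 and 0.69 FPKM in siRNA libraries 1 to 3, NARS2, for asparagine, at 0.46, 0.5 and 0.53 FPKM in NC libraries 1 to 3, against 0.67, 0.63 and 0.69 FPKM in siRNA libraries 1 to 3, and SARS2, for serine, at 0.93, 0.96 and 0.46 FPKM in NC libraries 1 to 3, against 1.09, 0.59 and 0.66 FPKM in siRNA libraries 1 to 3. The values of these 3 genes overlapped, so their order is not settled. SARS2 and VARS2 also overlap other gene models on the same strand, so their counts may leave out shared reads.

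The exonic size behind FPKM moved some of these levels by several fold. It exceeded the length of the GENCODE 29 transcript with the longest coding sequence 9.70-fold for RARS2, 7.28-fold for HARS1, 6.59-fold for GARS1, 6.50-fold for NARS2 and 5.55-fold for CARS2, and 1.00-fold for MARS2 and PARS2. With the transcript length in place of the exonic size, WARS1 remained highest at 370.4 FPKM and SARS1 second at 234 FPKM, while GARS1, for glycine, moved from rank 11 to rank 3 at 191 FPKM. RARS2, for arginine, moved from 4.09 to 39.7 FPKM. HARS1 moved from rank 28 to rank 19 at 36.1 FPKM, and TARS3, at a mean of 8.41 FPKM, was then the lowest cytosolic gene. The cytosolic median was then 8.45 to 13.8 times the mitochondrial one, and mitochondrial genes gave 10.9 to 13.3% of the sum. The ratio of both medians was thus above 6 on either scale in every library.

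**Figure D2:**
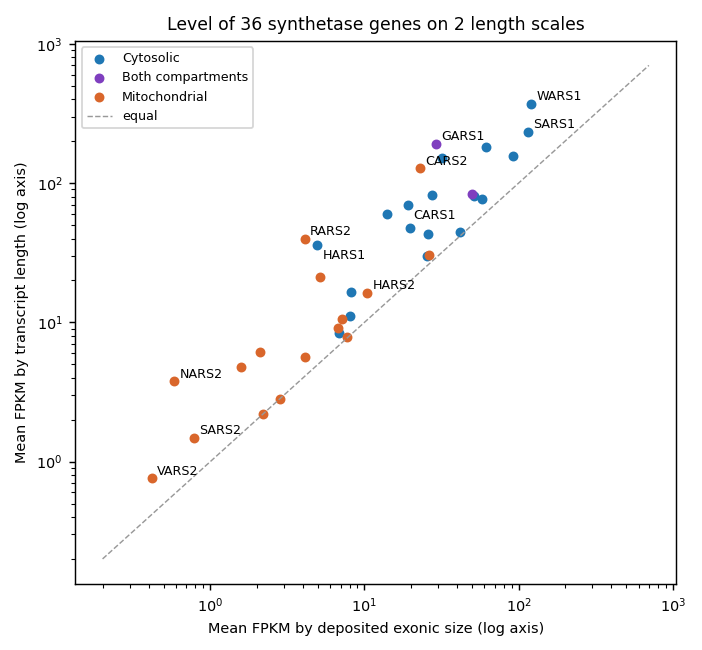
Mean level over 6 libraries of 36 synthetase genes in FPKM by the deposited exonic size (horizontal, log axis) and in FPKM by the length of the transcript with the longest coding sequence (vertical, log axis). The dashed line marks equal values; RARS2, HARS1, GARS1, NARS2 and CARS2 lie farthest above it.

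For 16 amino acids the rule holds both a cytosolic and a mitochondrial gene, EPRS1 serving for both glutamate and proline and phenylalanine being left out, since its cytosolic enzyme is built from FARSA and FARSB. The mitochondrial gene had the lower level in most pairs. Its FPKM was a median over libraries of 0.724% of the cytosolic one for serine (SARS2 and SARS1), 1.05% for asparagine (NARS2 and NARS1) and 3.05% for tryptophan (WARS2 and WARS1), against 26.7% for tyrosine (YARS2 and YARS1) and 81.7% for isoleucine (IARS2 and IARS1). The serine share may be too low if reads that SARS2 shares with another gene model were left out. In 2 pairs the mitochondrial gene had the higher median share. CARS2 was 122% of CARS1, between 98.2 and 126% over the libraries, and HARS2 was 212% of HARS1, between 185 and 233%. By transcript length CARS2 was 187% of CARS1, between 149.9 and 193%, but HARS2 was 45.9% of HARS1, between 40.1 and 50.4%. The order of the cysteine pair thus held on both scales other than in NC library 3, where the deposited FPKM of CARS2 was just below that of CARS1, and the order of the histidine pair turned with the length used. IARS2 went from 81.7% to 19.7% of IARS1 on the transcript scale, and RARS2 went from 8.35% to 50.9% of RARS1.

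The comparison of both groups asks which synthetase genes differ with the knockdown label. In RNA from whole cultures, fewer cells of a type and less RNA per cell cannot be told apart. Over all 6 libraries none of the 37 tested members passed an adjusted p of 0.05 in edgeR's quasi-likelihood test, where 3.09% of the 15870 tested genes did (1.61% higher and 1.48% lower in the siRNA libraries). At an unadjusted p under 0.05, 6 members were higher (16.2%, against 12.0% of all tested genes) and 3 were lower (8.11%, against 13.2%). DESeq2's Wald test called 4 members, AARS2, CARS1, CARS2 and WARS1 (10.8%, against 10.6% of all tested genes). The members' shares of calls over 6 libraries were thus near those of all genes. On TMM-normalised CPM (counts scaled to the library's size, with no length correction), the scale of the values that follow, the 3 siRNA libraries lay above all NC libraries for 11 members (29.7%, against 19.4% of all tested genes) and below them for 4 (10.8%, against 19.0%).

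The cysteine enzymes of both compartments were among the members with the largest differences. CARS1 (ENSG00000110619, chr11:3000922-3057613, minus strand, GRCh38), the cytosolic cysteinyl-tRNA synthetase, stood at 165, 170.1 and 147 CPM in NC libraries 1 to 3, against 229.6, 218 and 224 CPM in siRNA libraries 1 to 3. Its groups did not overlap, and at 161 ± 12.0 and 224 ± 5.93 CPM (SD, n = 3 each) it had the smallest adjusted p of all members (edgeR log2 fold change 0.48, SE 0.12, adjusted p = 0.0705). CARS2 (ENSG00000134905, chr13:110641412-110713603, minus strand), its mitochondrial counterpart, stood at 218, 203 and 150.4 CPM in NC libraries 1 to 3, against 300.2, 274 and 288 CPM in siRNA libraries 1 to 3. The groups of CARS2 did not overlap either, and NC library 3 was the lowest of all (edgeR log2 fold change 0.59, SE 0.16, adjusted p = 0.0882). CARS2 is also known as a source of cysteine persulfides.

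AARS2 and AARS1 encode the mitochondrial and the cytosolic alanyl-tRNA synthetase. AARS2 (ENSG00000124608, chr6:44298731-44313347, minus strand) had the largest difference of the 37 members, with 29.2, 30.4 and 17.5 CPM in NC libraries 1 to 3, against 47.1, 42.6 and 41.8 CPM in siRNA libraries 1 to 3 (edgeR log2 fold change 0.77, SE 0.21, adjusted p = 0.0914). AARS1 (ENSG00000090861, chr16:70251983-70289707, minus strand) stood at 617, 610.3 and 437 CPM in NC libraries 1 to 3, against 741, 679.9 and 697 CPM in siRNA libraries 1 to 3 (edgeR log2 fold change 0.35, SE 0.17, adjusted p = 0.238). Neither gene overlapped between the groups, and in both NC library 3 lay well below the other NC libraries.

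MARS1, WARS1 and TARS2 were the other members higher at an unadjusted p under 0.05. MARS1, the cytosolic methionyl-tRNA synthetase and a subunit of the multi-synthetase complex, stood at 130.2, 133 and 93.5 CPM in NC libraries 1 to 3, against 166, 153 and 157 CPM in siRNA libraries 1 to 3 (edgeR log2 fold change 0.41, SE 0.16, adjusted p = 0.165). WARS1 stood at 724, 682 and 615 CPM in NC libraries 1 to 3, against 872, 858 and 866 CPM in siRNA libraries 1 to 3 (edgeR log2 fold change 0.36, SE 0.13, adjusted p = 0.148). TARS2, the mitochondrial threonyl-tRNA synthetase, stood at 28.0, 26.3 and 19.6 CPM in NC libraries 1 to 3, against 33.5, 34.7 and 29.6 CPM in siRNA libraries 1 to 3 (edgeR log2 fold change 0.41, SE 0.16, adjusted p = 0.181). All siRNA libraries lay above all NC libraries for these 3 genes, by the widest margin relative to the spread of the siRNA libraries for WARS1, whose SD over the siRNA libraries was 6.56 CPM.

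The lower members were QARS1, IARS2 and PARS2. QARS1, the cytosolic glutaminyl-tRNA synthetase of the complex, stood at 132, 134 and 156 CPM in NC libraries 1 to 3, against 116, 99.0 and 102 CPM in siRNA libraries 1 to 3 (edgeR log2 fold change −0.41, SE 0.13, adjusted p = 0.11). IARS2 stood at 113, 115 and 137 CPM in NC libraries 1 to 3, against 96.6, 97.6 and 97.6 CPM in siRNA libraries 1 to 3 (edgeR log2 fold change −0.32, SE 0.12, adjusted p = 0.162). PARS2, the mitochondrial prolyl-tRNA synthetase, stood at 7.57, 6.46 and 9.57 CPM in NC libraries 1 to 3, against 6.21, 5.56 and 5.04 CPM in siRNA libraries 1 to 3 (edgeR log2 fold change −0.49, SE 0.2, adjusted p = 0.188). In these genes the siRNA libraries lay below every NC library, and NC library 3 was the highest of the 6.

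**Figure D3:**
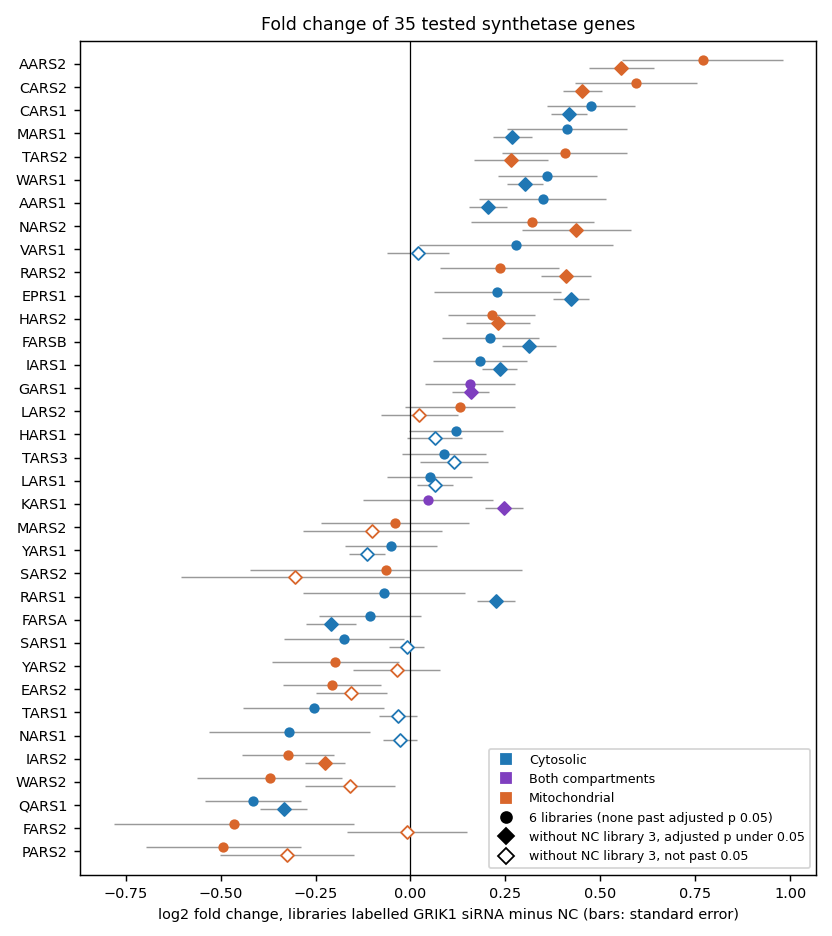
Fitted log2 fold change of 35 tested synthetase genes, libraries labelled GRIK1 siRNA minus NC, with the standard error as a bar. Circles are the fit of all 6 libraries, in which none passed an adjusted p of 0.05, and diamonds the fit without NC library 3, filled for the 19 genes that passed; the bars are shorter without that library, and RARS1 changes side.

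Other members had large fitted differences that rested on NC library 3. FARS2, the mitochondrial phenylalanyl-tRNA synthetase, stood at 7.48, 10.1 and 18.4 CPM in NC libraries 1 to 3, against 8.80, 8.34 and 8.96 CPM in siRNA libraries 1 to 3, a log2 fold change of −0.47 that was −0.0090 without NC library 3. WARS2 stood at 14.5, 16.5 and 22.8 CPM in NC libraries 1 to 3, against 14.5, 12.8 and 14.3 CPM in siRNA libraries 1 to 3, with −0.37 and −0.16. NARS1, the cytosolic asparaginyl-tRNA synthetase, stood at 215, 221 and 363 CPM in NC libraries 1 to 3, against 215, 215 and 212 CPM in siRNA libraries 1 to 3, with −0.32 and −0.028, and TARS1 at 364, 381 and 556 CPM in NC libraries 1 to 3, against 343, 378 and 370.1 CPM in siRNA libraries 1 to 3, with −0.25 and −0.033. In all of these genes the range of NC libraries 1 and 2 overlapped that of the siRNA libraries. For WARS2 it did so only just, at 14.52 CPM in NC library 1 and 14.53 CPM in siRNA library 1.

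NC library 3 was the outermost of the NC libraries in 36 of 38 members. It was the highest of all 6 libraries in 15 members (39.5%, against 35.5% of all tested genes) and the lowest in 14 (36.8%, against 35.8%), so its displacement went both ways and was shared by the rest of the table. The range of the NC libraries was wider than that of the siRNA libraries in 33 of 38 members (86.8%, against 80.7%). The ratio of NC library 3 to the mean of the other NC libraries was lowest for VARS2 at 0.16, VARS1 at 0.51, SARS2 at 0.55 and AARS2 at 0.59, and highest for NARS1 at 1.67, RARS1 at 1.68 and FARS2 at 2.10. Across the 37 tested members it correlated with the GC content of the transcript with Pearson's r of −0.62 and Spearman's rho of −0.66, as a description over genes of 1 set of libraries, which are not independent replicates. GC content correlated with the log2 fold change of 6 libraries with r of 0.20 and of 5 libraries with r of −0.19. The part of GC content in the differences between the groups was not tested.

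**Figure D4:**
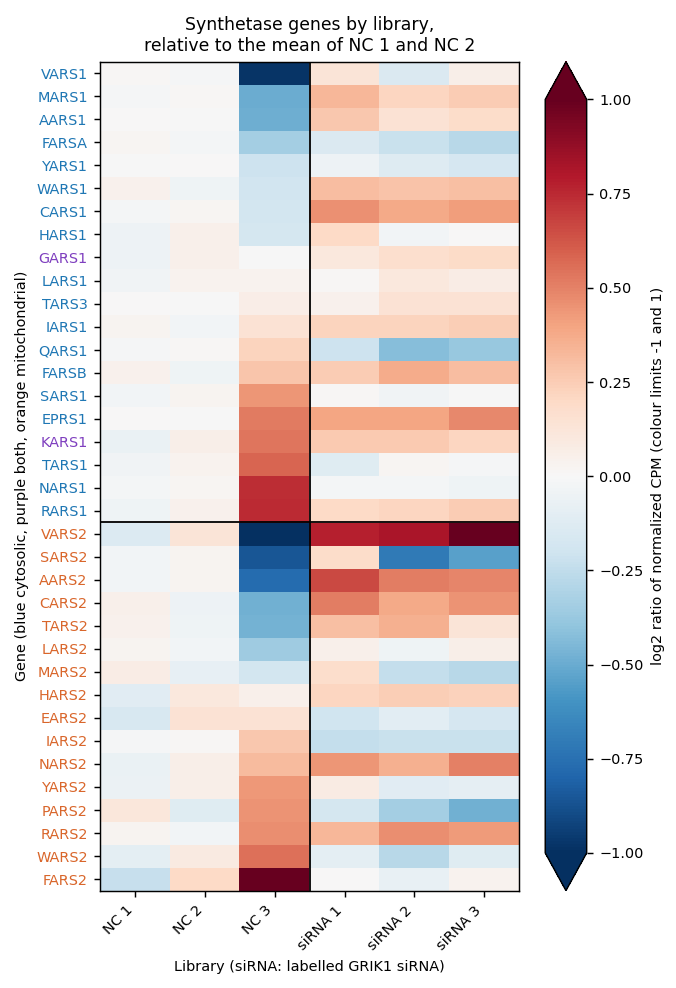
TMM-normalised CPM of 36 synthetase genes in each library as the log2 ratio to the mean of NC libraries 1 and 2, with colours limited to −1 and 1. Most of the deepest reds and blues lie in the column of NC library 3, and the 3 siRNA columns resemble each other.

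**Figure D5:**
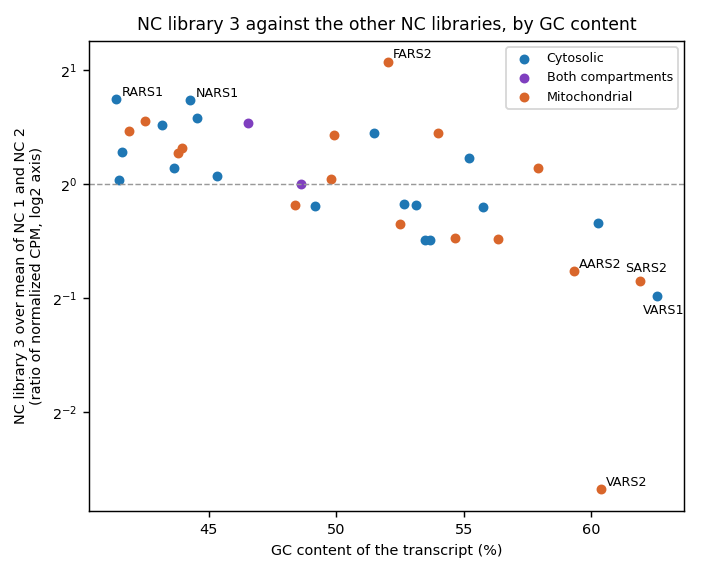
Ratio of NC library 3 to the mean of NC libraries 1 and 2 (log2 axis) against the GC content of the transcript for 36 synthetase genes. Genes of low GC content lie mostly above 1, and AARS2, FARSA, VARS2, SARS2 and VARS1, the highest in GC content, lie below 1.

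Without NC library 3, 19 of the 37 members passed an adjusted p of 0.05 (51.4%, against 35.2% of all tested genes). Of these, 16 were higher in the siRNA libraries (43.2%, against 16.9%) and 3 lower (8.11%, against 18.3%). Among tested genes at or above the members' median of 13.9 FPKM the background was 21.9% higher and 34.1% lower, where 10 of 19 members were higher and 3 lower, and below that level it was 15.8% and 14.8%, where 6 of 18 members were higher and none lower. None differed by more than 1 on the log2 scale. The higher members were 8 cytosolic, 2 shared and 6 mitochondrial genes, and the lower were 2 cytosolic genes, FARSA and QARS1, and 1 mitochondrial gene, IARS2. The NC group is then 2 libraries, and leaving out any other single library gave no edgeR call in any of the 15870 genes, although 2238 to 4434 of them had an unadjusted p under 0.05.

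Besides the genes given above, the cytosolic members higher in this fit were EPRS1, FARSB, IARS1 and RARS1. EPRS1, a single protein that charges both glutamate and proline tRNAs, stood at 181, 179 and 257 CPM in NC libraries 1 to 3, against 237, 236 and 251 CPM in siRNA libraries 1 to 3 (edgeR without NC library 3, log2 fold change 0.42, SE 0.047, adjusted p = 2.53e-06). IARS1, for isoleucine, stood at 657, 632 and 713 CPM in NC libraries 1 to 3, against 753, 753 and 766 CPM in siRNA libraries 1 to 3 (log2 fold change 0.23, SE 0.047, adjusted p = 0.00081). RARS1, for arginine, stood at 143, 152 and 247 CPM in NC libraries 1 to 3, against 169, 171 and 176 CPM in siRNA libraries 1 to 3 (log2 fold change 0.23, SE 0.05, adjusted p = 0.00194). These are 3 of the subunits of the multi-synthetase complex, and for EPRS1 and RARS1 the value of NC library 3 was above all siRNA libraries. FARSB, the beta subunit of the cytosolic phenylalanyl-tRNA synthetase, stood at 49.7, 46.9 and 58.6 CPM in NC libraries 1 to 3, against 57.5, 62.5 and 59.7 CPM in siRNA libraries 1 to 3 (log2 fold change 0.31, SE 0.07, adjusted p = 0.00216). FARSA, its alpha subunit, was lower at 69.8, 68.1 and 54.5 CPM in NC libraries 1 to 3, against 62.5, 59.2 and 57.0 CPM in siRNA libraries 1 to 3 (log2 fold change −0.21, SE 0.065, adjusted p = 0.0184). Both subunits of this enzyme were thus called in opposite directions in the fit without NC library 3, whereas over 6 libraries neither was called.

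The genes for both compartments were called higher in that fit. KARS1, for lysine, stood at 168, 183 and 253 CPM in NC libraries 1 to 3, against 209.7, 209.8 and 204 CPM in siRNA libraries 1 to 3 (log2 fold change 0.25, SE 0.05, adjusted p = 0.000902). GARS1, for glycine, stood at 460.0, 493 and 476 CPM in NC libraries 1 to 3, against 513, 537 and 543 CPM in siRNA libraries 1 to 3 (log2 fold change 0.16, SE 0.05, adjusted p = 0.0194), with all siRNA libraries above all NC libraries. The mitochondrial genes RARS2, NARS2 and HARS2 were higher as well. RARS2 stood at 60.4, 58.0 and 81.7 CPM in NC libraries 1 to 3, against 74.4, 81.9 and 79.3 CPM in siRNA libraries 1 to 3 (log2 fold change 0.41, SE 0.065, adjusted p = 0.000104). NARS2 stood at 7.48, 8.17 and 9.73 CPM in NC libraries 1 to 3, against 10.6, 10.0 and 11.1 CPM in siRNA libraries 1 to 3 (log2 fold change 0.44, SE 0.14, adjusted p = 0.0238). HARS2 stood at 32.9, 38.1 and 36.7 CPM in NC libraries 1 to 3, against 41.2, 42.1 and 41.6 CPM in siRNA libraries 1 to 3 (log2 fold change 0.23, SE 0.084, adjusted p = 0.0407). NARS2 and HARS2 kept all siRNA libraries above all NC libraries, and RARS2 did not, since NC library 3 lay among the siRNA libraries.

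The size of the log2 fold changes depended on NC library 3. Without it AARS2 went from 0.77 to 0.56, CARS2 from 0.59 to 0.45, CARS1 from 0.48 to 0.42 and MARS1 from 0.41 to 0.27, while EPRS1 went from 0.23 to 0.42, RARS2 from 0.24 to 0.41 and KARS1 from 0.05 to 0.25. All tested members other than RARS1 kept their direction in both fits. In the edgeR fit of 5 libraries the adjusted p was 0.000103 for WARS1, 7.91e-05 for AARS2, 0.00404 for AARS1, 3.03e-06 for CARS1 and 2.92e-06 for CARS2. QARS1 and IARS2 stayed lower at −0.33 and −0.22 (edgeR adjusted p of 0.000476 and 0.0028), and PARS2 at −0.33 was not called (adjusted p = 0.17).

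The fold changes of cytosolic and mitochondrial genes overlapped widely. The median log2 fold change over 6 libraries was 0.09 for the 19 cytosolic genes (11 above 0 and 8 below), 0.10 for both shared genes and −0.05 for the 16 tested mitochondrial genes (7 above and 9 below), against −0.02 for all tested genes. Without NC library 3 these medians were 0.06, 0.20, −0.02 and 0.01. Members ranged from −0.41 to 0.48 in the cytosolic class and from −0.49 to 0.77 in the mitochondrial one. By catalytic fold the medians were 0.05 for the 17 tested class I genes and 0.05 for the 19 class II genes, EPRS1 being left out as it holds a domain of each, and 0.02 and 0.06 without NC library 3. No difference between the classes was tested.

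The 8 subunits of the multi-synthetase complex, among them EPRS1, IARS1, KARS1, LARS1, MARS1, QARS1 and RARS1, had a median of 0.05 over 6 libraries (5 above 0 and 3 below) and 0.23 without NC library 3 (6 above and 2 below). That median rested on the NC libraries, at −0.02 without NC library 1 (4 above and 4 below) and 0.02 without NC library 2. The 13 cytosolic or shared genes outside it had medians of 0.12 and 0.06. Within the complex, QARS1 was lower while EPRS1, IARS1, KARS1, MARS1 and RARS1 were higher in the fit without NC library 3. The scaffold genes AIMP1, AIMP2 and EEF1E1 were not called in either fit, with log2 fold changes of −0.07, 0.06 and −0.49 over 6 libraries and 0.12, 0.13 and −0.07 without NC library 3.

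The pairs of 1 amino acid with the most different log2 fold changes were tryptophan (WARS1 at 0.36 and WARS2 at −0.37), proline (EPRS1 at 0.23 and PARS2 at −0.49) and threonine (TARS1 at −0.25 and TARS2 at 0.41). Without NC library 3 the same pairs stood at 0.30 and −0.16, 0.42 and −0.33, and −0.03 and 0.26. In isoleucine the cytosolic gene IARS1 was called higher and the mitochondrial gene IARS2 lower without NC library 3. The cysteine, alanine and arginine pairs, by contrast, had both genes called higher in that fit. The difference within a pair was not tested.

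Of the 8 members with the ATF4-type letters shown above, 5 had a log2 fold change above 0 over 6 libraries (AARS1, CARS1, GARS1, IARS1 and MARS1) and the same 5 were called higher without NC library 3, a fit in which 43.2% of the tested members and 16.9% of all tested genes were called higher and 8.11% and 18.3% lower. NARS1, TARS1 and YARS2 were at −0.03, −0.03 and −0.04 in that fit and were not called. Members with no match in their window, such as WARS1, EPRS1 and CARS2, were called higher too. Of the 8 members with the ETS-type letters, 3 were called higher and none lower without NC library 3, and of the 6 with the NRF1-type motif 1 was higher (FARSB) and 1 lower (IARS2). HARS1 and HARS2, which share their ETS-type sites, stood at 0.06 and 0.23.

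Among 25 genes of the amino acid response, none was called over 6 libraries, and 7 were higher and 4 lower without NC library 3, beside 16.9% and 18.3% of all tested genes. ATF4 stood at 154, 159.8 and 202 FPKM in NC libraries 1 to 3, against 196, 193 and 192 FPKM in siRNA libraries 1 to 3 and was called higher in the latter fit only (log2 fold change 0.28, edgeR adjusted p = 0.000173). DDIT3, the stress-induced transcription factor CHOP, stood at 168, 182 and 213 FPKM in NC libraries 1 to 3, against 248, 261 and 265 FPKM in siRNA libraries 1 to 3, a log2 fold change of 0.36 over 6 libraries and 0.54 without NC library 3. SLC7A5, the light chain of the large neutral amino acid transporter, and SESN2, a leucine sensor upstream of mTORC1, had the largest positive values over 6 libraries, 0.73 and 0.47, which were 0.50 and 0.43 without NC library 3. PSPH and SHMT2, enzymes of serine and glycine synthesis, had the most negative, −0.75 and −0.63, which were −0.41 and −0.50 without it. ASNS, a widely used reporter of this response, was at 0.16 and −0.0093 in both fits, so the list did not move one way. The median of the list was 0.08, and 0.11 without NC library 3.

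Genes that act on tRNA beside the synthetases were compared as well. Of 23 genes of mitochondrial tRNA maturation and translation none was called over 6 libraries, and 4 were higher and 3 lower without NC library 3 (median −0.11 and −0.01), shares near the 16.9% and 18.3% of all tested genes. Among them the largest positive values over 6 libraries were those of PUS1, a tRNA pseudouridine synthase, at 0.49 and TRMU, a tRNA thiolation enzyme, at 0.39, and the most negative those of MTIF2, the mitochondrial initiation factor, at −0.53 and TUFM, which carries charged tRNA to the mitochondrial ribosome, at −0.49. Without NC library 3 PUS1 was at 0.19, TRMU at 0.25, MTIF2 at −0.20 and TUFM at −0.39. Of 12 tested genes that handle charged tRNA in the cytosol, GCN1 alone was called over 6 libraries (log2 fold change 1.72, edgeR adjusted p = 0.032, and 1.45 without NC library 3). Without NC library 3, GCN1 and EIF2AK4 were called higher and XPOT, EEF1A1, EEF1B2 and EEF2 lower, 2 and 4 of the 12 genes. In that fit 16.9% of all tested genes were higher and 18.3% lower. Among tested genes at or above 13.9 FPKM, 34.1% were lower. GCN1, the ribosome-bound activator of GCN2, stood at 11.9, 11.1 and 4.86 FPKM in NC libraries 1 to 3, against 34.3, 30.5 and 31.2 FPKM in siRNA libraries 1 to 3, so that its groups did not overlap. EIF2AK4, which encodes GCN2, was at 0.51 in that fit (edgeR adjusted p = 1.34e-06), EEF2, the translocation factor of the ribosome, at −0.48 (edgeR adjusted p = 5.74e-06) and XPOT, the nuclear export receptor for tRNA, at −0.22 (edgeR adjusted p = 0.00127). EEF1A1 and EEF1B2, of the elongation factor that delivers charged tRNA to the ribosome, had the most negative values of the list over 6 libraries, −0.97 and −0.84, and −0.36 and −0.25 without NC library 3. AARSD1, an editing protein for mischarged alanine tRNA, was at 0.62, and at 0.30 without NC library 3.

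In these libraries the synthetases took 0.607, 0.606 and 0.579% of all counted reads in NC libraries 1 to 3 and 0.694, 0.681 and 0.684% in siRNA libraries 1 to 3. The groups did not overlap in this share, which weighs long and abundant members most. It is a share of raw totals, without the TMM factors, which were 0.891 for NC library 3 and 1.006 to 1.033 for the others. The share was not compared with that of other gene sets.

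Overlap with other genes may limit several members. In the table's annotation 30 of 38 members overlap another gene, 23 of them on the opposite strand, and 19 are overlapped by a gene of at least 0.5 FPKM. These overlaps are of whole gene spans, introns included. Overlap of exons, where reads are counted, was not measured, nor was the share over all genes. The strand setting of the counting is not given in the sources used here. If the counting did not use the strand, reads from exons that MARS1 and DDIT3 may share cannot be assigned apart. Their spans overlap by 982 bases on opposite strands, and DDIT3 stood at 223 FPKM. The same holds for the spans of HARS1 and HARS2 over 108 bases and of GARS1 and GARS1-DT over 14754 bases. It also holds for KARS1 and TERF2IP over 871 bases and for CARS2 and ING1 over 868 bases. HARS2 overlaps ZMAT2 on the same strand over 626 bases. VARS2 lies inside another gene model on the same strand, and its counts of 21, 25 and 4 reads in NC libraries 1 to 3, against 45, 47 and 59 in siRNA libraries 1 to 3, may leave out shared reads. SARS2 overlaps another model on the same strand over 15360 bases and MARS2 over 3027 bases, and each of these models had 0 counts in every library. The counts of SARS2 and MARS2 may leave out shared reads as well. Without the filter VARS2 had a log2 fold change of 1.37 (edgeR adjusted p = 0.0494), with all siRNA libraries above all NC libraries and NC library 3 lowest.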

How the data were processed

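RNA-seq libraries of U87-MG cells, 3 NC and 3 labelled GRIK1 siRNA, were used. The authors deposited raw read counts per gene and FPKM values, with cutadapt 1.9.1, HISAT2, HTSeq and GRCh38 named in the submitters' processing notes; the counting strand, overlap mode and annotation are not given in the sources used here. The deposited FPKM equalled the count divided by the exonic size and by the library's total count for 100% of values, within 0.005. Totals were 11099909 to 14006968 reads, and counts set the precision of low genes.

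Counts of all 61806 genes were filtered at a mean of 0.5 FPKM (15870 genes), TMM-scaled and fitted with edgeR 4.0.16 (R 4.3.3, glmQLFTest, Benjamini-Hochberg over all genes tested). DESeq2 1.42.0 and limma 3.58.1 on log2(FPKM + 1) or log2(FPKM + 0.1) were alternatives. The code was tested on simulated counts of 6 libraries. There edgeR recovered 52 of 100 genes changed 2-fold and 87 of 100 changed 4-fold, with 5 false calls. The members' log2 fold changes over 6 libraries, −0.49 to 0.77, were all smaller than 2-fold. The absence of calls among them therefore does not show that they were unchanged. Transcript lengths and GC content came from GENCODE 29, promoters from RefSeq. All members entered the counts and medians, and 2 of them are not reported here by name or drawn. Values in every library were given for members called in the edgeR fit of 6 libraries or of the 5 without NC library 3, for the 3 largest differences each way and the 3 highest and lowest levels per compartment, and for the 3 pairs that differed most. The members and lists were chosen with earlier results of these data known, and the promoter motifs and the length alternative after the data were seen.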

Additional observations from a re-analysis of the deposited data

How the results depend on the processing

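Depth limits the low members such as VARS2, NARS2 and SARS2, and 3 libraries per group, 1 of which stands apart, limit the rest. Over all genes 490 were called by edgeR with 6 libraries, 1684 by DESeq2, 1403 by edgeR without a filter, 280 by limma on log2(FPKM + 0.1), and between 0 and 5591 by edgeR when 1 library was left out, the 5591 without NC library 3. In the members the count of calls, 0 with 6 libraries, was 2 without the filter (AARS2 and VARS2), 4 by DESeq2, and 0 to 19 when 1 library was left out, the 19 again without NC library 3; it was 0 under the other alternatives, at 9 unadjusted p under 0.05 in the edgeR fit. The cause of these shifts was not tested.

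The cytosolic median log2 fold change, 0.089, was between 0.062 and 0.17 under the alternatives. The median of all tested genes moved as well. It was −0.017 with 6 libraries, 0.072 without the filter, and 0.062 and 0.089 by limma on log2(FPKM + 1) and log2(FPKM + 0.1). Without the filter the cytosolic median, 0.062, was below that of all genes. The mitochondrial median, −0.053, was 0.0114 by limma on log2(FPKM + 1), 0.0208 on log2(FPKM + 0.1) and between −0.132 and 0.0634 when 1 library was left out. In both limma fits it stayed below the median of all tested genes.

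Of 516 values of single members under alternatives, 17 changed sign, in 5 of 37 genes whose value with 6 libraries was near 0. KARS1 was −0.068 without NC library 1 and −0.019 without NC library 2, within a range up to 0.25 when 1 library was left out. RARS1 was 0.061 and 0.062 by limma on log2(FPKM + 1) and log2(FPKM + 0.1) and 0.23 without NC library 3, within a range from −0.21. YARS1 was 0.038 and 0.039 by both limma fits. MARS2 was 0.023 and 0.032 by both limma fits, 0.032 without NC library 1, 0.025 without siRNA library 2 and 0.042 without siRNA library 3, within a range from −0.20. SARS2 was 0.0098 by limma on log2(FPKM + 0.1), 0.053 and 0.086 without NC libraries 1 and 2, and 0.10 and 0.041 without siRNA libraries 2 and 3, within a range from −0.38.

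The library numbers do not pair the libraries as far as the labels say, and the deviations from the group means of NC and siRNA libraries of the same number correlated at −0.0703, 0.0441 and −0.0425, so that not every library correlated best with its own number. With the number as a replicate block edgeR called 0 members and 0 genes in all, 3324 genes having an unadjusted p under 0.05.

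HARS2 as a share of HARS1 went from 212% by exonic size to 45.9% by transcript length, and CARS2 of CARS1 from 122% to 187%.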

Other observations

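Across the 37 tested members the log2 fold change over 6 libraries correlated with the exonic size in the table (Pearson's r 0.37, Spearman's rho 0.50) and less with the transcript length (r 0.25, rho 0.23). Without NC library 3 the values were 0.38 and 0.48 for the exonic size and 0.18 and 0.15 for the transcript length. Genes share their libraries and are not independent replicates, and no test was made of these correlations.

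In the members' neighbourhood, GARS1-DT, which starts opposite to GARS1, had 1413, 1295 and 685 reads in the NC libraries and 1871, 1771 and 1873 reads in the siRNA libraries, a log2 fold change of 0.51 over 6 libraries and 0.22 without NC library 3. GARS1 itself was at 0.16 in both fits. ZMAT2, which overlaps the end of HARS2, had 2190 reads in NC library 3 and between 768 and 877 in the other 5 libraries, while HARS2 in NC library 3 lay within the range of the other NC libraries.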
